A study of Drosophila melanogaster with 5 samples.

Results

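The genes described here are the transcriptional repressors of the Enhancer of split complex, written E(spl), with a basic helix-loop-helix (bHLH) domain, and 3 genes of the Bearded family. They were taken by gene symbol from the array's probe-to-gene annotation, from a list of 10 genes chosen with earlier results of these data known. The annotation names 8 of the 10 among 10844 genes, each by 1 probe set: E(spl)mdelta-HLH, E(spl)mbeta-HLH, E(spl)m3-HLH, E(spl)m5-HLH and E(spl)m7-HLH of the bHLH repressors, and E(spl)malpha-BFM, E(spl)m4-BFM and Tom of the Bearded family. E(spl)mgamma-HLH and E(spl)m8-HLH were not analysed here. The list was chosen on the difference between the groups described next, so that difference, and how many of the genes a fit across all probe sets calls, are given as a description and support nothing.

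Total RNA was taken from Drosophila melanogaster cells that a cell sorter had picked for green fluorescent protein (GFP). The larval brain group came from dissociated brains of larvae and has 1 array, so no replicate, and the embryo culture group came from cultured embryonic cells and has 4 arrays (a to d). In both groups a 7.4 kb fragment at the choline acetyltransferase gene (Cha-Gal4) drove UAS-GFP, so what marks a cell as cholinergic is the activity of that fragment. The labels give no age, culture time or further genotype. They also do not say that arrays a to d stem from different cultures. The spread behind every p-value is that between these arrays alone and may be technical.

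Notch is a receptor that is cut when a ligand such as Delta on a neighbouring cell binds it. The freed intracellular part joins the DNA-binding protein Su(H) and the co-activator Mastermind and switches on target genes, among which the E(spl) bHLH genes are the best known. Their proteins recruit the co-repressor Groucho and repress proneural genes, which keeps cells from taking up a neural fate, and in the developing brain Notch targets are also known from neural stem cells (neuroblasts). Bearded family genes are Notch targets as well, but encode small proteins without a DNA-binding domain that bind the ubiquitin ligase Neuralized and hold back its action on Delta. E(spl)malpha-BFM and E(spl)m4-BFM lie among the bHLH genes in the E(spl) complex, whereas Tom lies in the separate Bearded complex.

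All arrays carried the cholinergic marker ChAT above background, with a signal intensity of 2255 in larval brain and of 1457, 2573, 2846 and 2926.5 in embryo culture a to d. A second, dimmer ChAT probe set had 712 in larval brain, below each embryo culture value (1421, 1093, 881 and 908 on a to d). The neuronal marker elav stood at 3047 in larval brain and at 104, 61.4, 713 and 667 in embryo culture a to d, so it was under background on embryo culture arrays a and b. Background is, on each array, the highest signal of the 23 controls that match bacteria, yeast or mouse. It was 82.6 in larval brain and 148, 200.4, 119 and 271 in embryo culture a to d. The arrays also differed in 3′ bias: the mean log2 ratio of 3′ to middle signal over 3 control messenger RNAs was 1.15 in larval brain and 2.45, 2.35, 1.49 and 1.66 in embryo culture a to d, so group and 3′ bias moved together. The same ratio of 3′ to 5′ signal was 4.24 in larval brain and 6.16 to 8.69 in embryo culture. Intensities carry no counts, and the number of arrays, background and 3′ bias all limit what can be measured. Probe sets differ in brightness, so no gene's level is set against another's.

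The 3 Bearded family genes were far brighter in larval brain than on any embryo culture array. E(spl)m4-BFM had 3379.9 in larval brain, against 54.9, 62.6, 110.4 and 43.1 in embryo culture a to d. All 4 embryo culture values lay at or under background, so the gene has only a bound there, and larval brain was at least 19.2-fold higher. The bound divides the larval brain signal by the embryo culture mean, on a log2 scale, of the higher of background and the gene's own signal.

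Tom, the member of the Bearded complex, had 5640.3 in larval brain, against 235.9, 80.6, 244.6 and 191.5 in embryo culture a to d. It was above background on embryo culture arrays a and c only, and larval brain stood 23.9-fold and 23.1-fold above these. E(spl)malpha-BFM had 3184 in larval brain, against 74.6, 100, 302 and 101.5 in embryo culture a to d, of which only array c was above background. Larval brain was 10.5-fold above that array. Larval brain lay above all 4 embryo culture arrays for each of these genes, as it did for 25.6% of all probe sets. Array c held the highest embryo culture value for each, as it did for 19.9% of all probe sets.

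On a log2 scale after adding 47.4 to each intensity, which understates changes of dim genes, the difference of larval brain minus embryo culture was 4.93 ± 0.66 (SE) for E(spl)m4-BFM, 4.66 ± 0.61 for Tom and 4.21 ± 0.71 for E(spl)malpha-BFM. The standard error rests on the spread of the 4 embryo culture arrays, which the fit takes to hold for the lone larval brain array too. The median of the 3 chosen Bearded family genes was 4.66, against -0.07 over all probe sets.

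**Figure D1:**
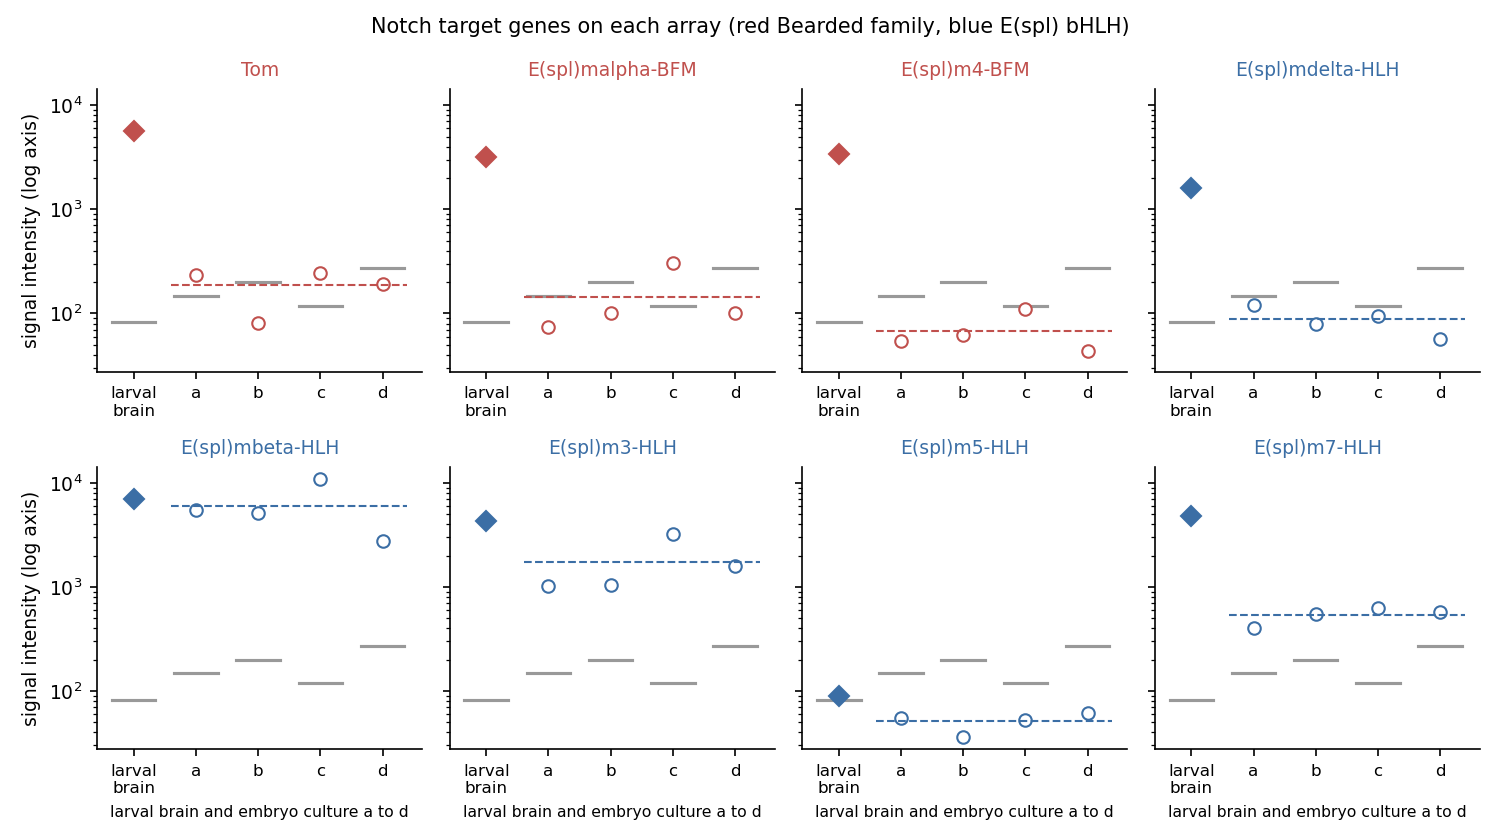
Signal intensity (log axis) of the 8 genes on the larval brain array (filled diamonds) and on the 4 arrays of embryo culture (open circles), with the embryo culture mean (dashed line) and the background of each array (grey bars). The 3 Bearded family genes (red) and E(spl)mdelta-HLH stand at 1613 or more in larval brain and at 302 or less on each embryo culture array, whereas E(spl)mbeta-HLH lies inside the embryo culture range.

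The 5 bHLH repressors did not share this pattern among themselves. E(spl)mdelta-HLH and E(spl)m7-HLH stood well above the embryo culture range in larval brain, E(spl)m3-HLH stood just above it, E(spl)mbeta-HLH stood within it, and E(spl)m5-HLH was just above background in larval brain and under it in embryo culture. Their median log2 difference was 1.46, with a range from 0.39 to 3.64. The differences of the 3 chosen Bearded family genes, from 4.21 to 4.93, all lay above the highest bHLH difference, that of E(spl)mdelta-HLH. This does not hold for the family as a whole. E(spl)m2-BFM (2.87), Brd (2.57) and E(spl)m6-BFM (2.14), Bearded family genes outside the list, lay below E(spl)mdelta-HLH. The order of the chosen genes was lost with either 3′ index as a covariate. There E(spl)malpha-BFM had 3.30 and E(spl)mdelta-HLH 3.87 (middle index), or 3.18 and 4.14 (5′ index). In these fits the slope of the index comes from the embryo culture arrays alone. It is carried to a larval brain index outside their range, so the values are extrapolations. Against embryo culture arrays c and d alone E(spl)malpha-BFM and E(spl)mdelta-HLH had 3.82 and 3.77.

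E(spl)mdelta-HLH, the first gene of the complex, had 1613 in larval brain, against 119.6, 78.5, 95.0 and 57.2 in embryo culture a to d. None of its 4 embryo culture values exceeded background, and larval brain was at least 9.17-fold higher (log2 difference 3.64 ± 0.65). E(spl)m7-HLH had 4801 in larval brain, against 399.5, 544, 628 and 573 in embryo culture a to d. It was above background on every array, so its fold is measured on both sides: larval brain was 7.65-fold above array c, the nearest, and 8.96-fold above the embryo culture mean (log2 difference 3.07 ± 0.42). The embryo culture values of E(spl)m7-HLH were close together, with an SD of 0.26 on the log2 scale against a median SD of 0.48 over all probe sets.

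E(spl)m3-HLH had 4302 in larval brain, against 1027, 1045, 3212 and 1584 in embryo culture a to d. All 5 values lay above background, and larval brain was above each embryo culture array, by 1.34-fold over array c and by 4.19-fold over array a. Its log2 difference was 1.46 ± 0.59, and 0.92 against embryo culture arrays c and d alone. Against a and b alone it was 2.01 and E(spl)m3-HLH was called too. With the 3′ to middle index as a covariate it was 0.27, and with the 3′ to 5′ index 0.01, both extrapolated beyond the embryo culture range. E(spl)m3-HLH is thus a gene that embryo culture expressed too, whose difference moved with the arrays it was set against.

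E(spl)mbeta-HLH had 7047 in larval brain, against 5447, 5133, 10771 and 2764.5 in embryo culture a to d. Larval brain exceeded arrays a, b and d, by 1.29-fold, 1.37-fold and 2.55-fold, and was 0.654 times array c. The log2 difference of 0.39 ± 0.63 was smaller than the SD of 0.79 between the embryo culture arrays. E(spl)m5-HLH had 90.4 in larval brain, against 55.5, 36.5, 52.8 and 61.6 in embryo culture a to d. Its larval brain value was above that array's background of 82.6 and its embryo culture values were all under theirs, so no fold is given. The log2 difference was 0.48 ± 0.46, and it turned to -0.71 ± 0.55 when values under background were set to background, a step that moved the median of all probe sets to -0.52.

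Some of the genes were measured above background throughout embryo culture. Of the bHLH repressors 3 of 5 (E(spl)mbeta-HLH, E(spl)m3-HLH and E(spl)m7-HLH) were above it on all 4 embryo culture arrays. Of the 3 chosen Bearded family genes 0 were, and 39.7% of all probe sets were. The numbers of genes are small and the difference between the families was not tested. In larval brain all 8 genes lay above background, as did 68.0% of all probe sets, against 48.6% to 61.9% on the embryo culture arrays. The larval brain background was the lowest of all arrays. The larval brain value of E(spl)m5-HLH, 90.4, was under the background of each embryo culture array. In RNA of sorted cell populations, fewer cells that express a gene and less RNA per cell cannot be told apart.

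In the limma fit across all probe sets, at an adjusted p under 0.05 (Benjamini-Hochberg), 5 of the 8 genes were called higher in larval brain and 0 lower. The 5 are the Bearded family genes, E(spl)mdelta-HLH and E(spl)m7-HLH. Over all 13966 probe sets 0.866% were called higher, 2.39% lower and 3.26% in either direction, and 16% had an unadjusted p under 0.05. Larval brain lay above all 4 embryo culture arrays for 7 of the 8 genes and below all 4 for 0, against 25.6% and 28.6% of all probe sets. Since the genes were chosen on this contrast, nothing is read from these counts. The count of 5 was 3 with the 3′ to middle index as a covariate, where E(spl)malpha-BFM (log2 difference 3.30 ± 0.84) and E(spl)mdelta-HLH (3.87 ± 0.88) missed the threshold. It was 0 with the 3′ to 5′ index, where the 5 differences lay between 2.52 and 4.75.

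**Figure D2:**
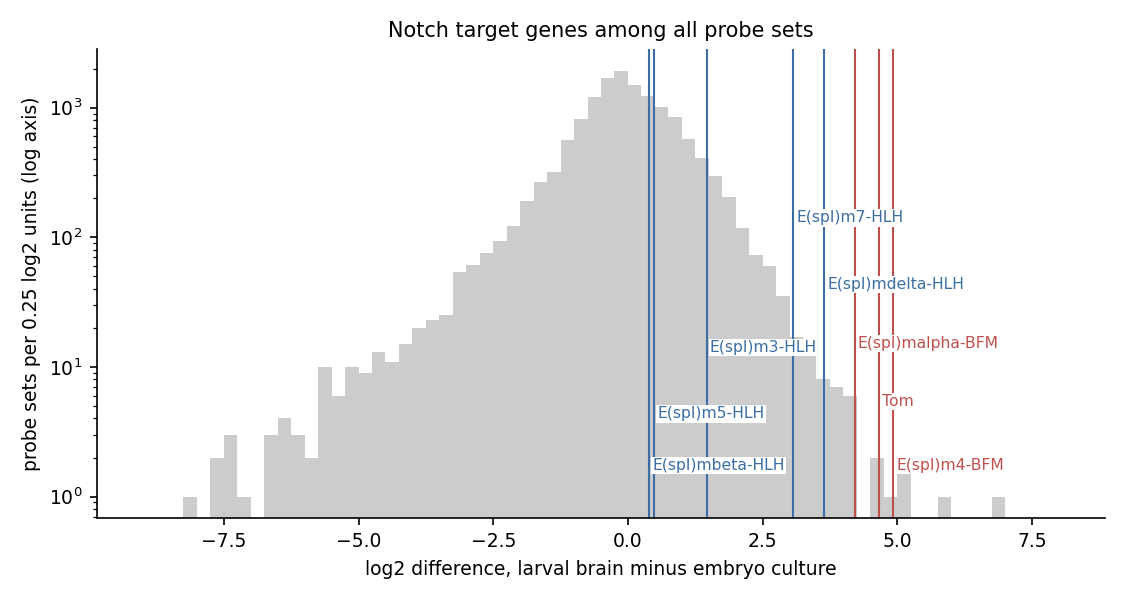
Distribution of the log2 difference, larval brain minus embryo culture, over 13966 probe sets (grey, log axis of probe sets per 0.25 units) with the 8 genes as vertical lines, red for the Bearded family and blue for the E(spl) bHLH repressors. The Bearded family lines lie at 4.21 to 4.93 in the upper tail, and the bHLH lines are spread from 0.39 to 3.64.

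The embryo culture arrays also differed among themselves for these genes. Array c gave the highest embryo culture value for 6 of the 8 genes, all but E(spl)mdelta-HLH and E(spl)m5-HLH, while it was the highest for 19.9% of all probe sets. The median deviation of the Bearded family from its embryo culture mean was 0.49 on array c and -0.14, -0.25 and -0.23 on arrays a, b and d. E(spl)m4-BFM was above background on 0 embryo culture arrays, E(spl)malpha-BFM on 1 (c) and Tom on 2 (a and c). The family's deviations thus rest mostly on signals at or under background. For the bHLH repressors it was 0.23 on array c and 0.02, -0.08 and 0.05 on a, b and d. Of the embryo culture arrays, array c had the lowest 3′ to middle index (1.49, against 1.66 on d) and array d the lowest 3′ to 5′ index (6.16, against 6.47 on c). The part of 3′ bias in these values was not tested.

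The spread between embryo culture arrays was widest for E(spl)mbeta-HLH and E(spl)m3-HLH, with SDs of 0.79 and 0.75 on the log2 scale, larger than those of 82.1% and 78.9% of all probe sets. The difference of E(spl)mbeta-HLH, 0.39, was smaller than its SD, and that of E(spl)m3-HLH, 1.46, was larger. E(spl)m4-BFM and E(spl)mdelta-HLH had SDs of 0.34 and 0.29, but all their embryo culture values lay at or under background, where the added constant compresses the log2 scale.

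Along the E(spl) complex the differences did not follow the order of the genes. The RefSeq gene table lists 13 protein-coding genes from E(spl)mdelta-HLH to groucho (gro), of which the array's annotation names 11. E(spl)mbeta-HLH, with a difference of 0.39, lies next to E(spl)malpha-BFM, with 4.21. E(spl)m3-HLH and E(spl)m5-HLH, with 1.46 and 0.48, flank E(spl)m4-BFM, with 4.93. The gene for the co-repressor Groucho, at the end of the complex, had 2919.6 in larval brain, against 1415, 1537, 1571 and 2126 in embryo culture a to d (0.81 ± 0.38, limma adjusted p = 0.345).

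The complex also holds a gene that fell in larval brain. Kaz-m1, formerly E(spl)m1, lies between E(spl)malpha-BFM and E(spl)m2-BFM and is annotated with a Kazal-type protease inhibitor name. Kaz-m1 had 62.2 in larval brain, which is under background, against 10129.5, 5859.6, 7306 and 4888.5 in embryo culture a to d. It was at least 82.1-fold lower in larval brain, with a log2 difference of -5.96 ± 0.45 and a limma adjusted p of 0.000333. Kaz-m1 is the only named gene of the complex with a negative difference, and the difference lay between -6.46 and -5.07 over 15 alternatives, past the threshold in each.

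E(spl)m2-BFM, E(spl)m6-BFM and Brd, further Bearded family genes of the complexes, had higher values in larval brain but did not pass the test. They were named after their values were seen, as neighbours in the complexes. E(spl)m2-BFM had 1406 in larval brain, against 60.4, 59.3, 262 and 391.5 in embryo culture a to d (2.87 ± 0.88, limma adjusted p = 0.137). Brd, the founding member of the family, had 1443 in larval brain, against 219, 99.6, 188.5 and 381 in embryo culture a to d (2.57 ± 0.67, limma adjusted p = 0.0806). E(spl)m6-BFM had 279.8 in larval brain, against 14.1, 16.6, 96.3 and 5.8 in embryo culture a to d, all under background (at least 1.59-fold higher, limma adjusted p = 0.0961). For each of them larval brain lay above all 4 embryo culture values, as it did for 25.6% of all probe sets.

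Ocho, the last gene of the Bearded complex, has 2 probe sets that disagreed. The brighter had 220.1 in larval brain, against 204, 368, 275 and 759 in embryo culture a to d (-0.60 ± 0.70, limma adjusted p = 0.730). The other had 558 in larval brain, against 18.5, 35.6, 24.5 and 62.7 in embryo culture a to d, all under background (2.90 ± 0.55, limma adjusted p = 0.0235). No direction is given for Ocho.

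**Figure D3:**
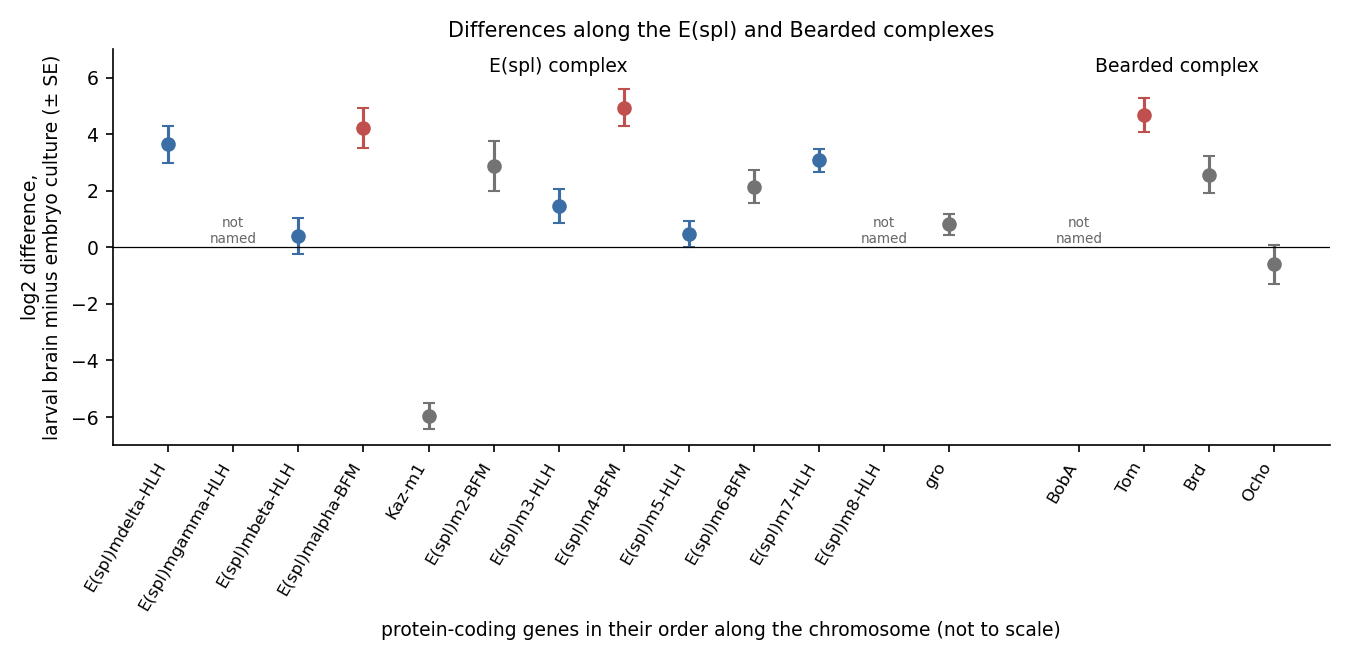
Log2 difference, larval brain minus embryo culture (± SE), of the protein-coding genes of the E(spl) and Bearded complexes in their RefSeq order, not to scale, with the Bearded family genes of the list in red, the bHLH repressors in blue and other genes in grey. Kaz-m1 stands at -5.96 between neighbours at 4.21 and 2.87, and Ocho is shown by its brighter probe set, whose difference is opposite in sign to that of its other probe set.

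Upstream of these targets, the ligand gene Delta rose in larval brain. Delta had 2301 in larval brain, against 461, 571, 551 and 595 in embryo culture a to d. The log2 difference was 1.99 ± 0.41 (limma adjusted p = 0.0329), and it missed the threshold when array a, b or c of embryo culture was left out, with limma adjusted p-values of 0.0662, 0.0755 and 0.0595. It also missed it with either 3′ index as a covariate (0.0932 and 0.219) and without the variance trend (0.066), and the difference itself stayed between 1.71 and 2.14 over 15 alternatives. The receptor gene Notch (N) and the second ligand gene Serrate (Ser) were not analysed here.

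Of 41 measured pathway genes outside the list of 8, from 7 lists, 1 rose (Delta) and 2 fell (Kaz-m1 and hry), where 0.866% of all probe sets were called higher and 2.39% lower. Their median difference was 0.57, and 30 of 41 were positive, against a median of -0.07 and 46.0% over all probe sets. In the list for ligand endocytosis, glycosylation and cleavage, 0 of 7 passed. Its brightest members were lqf, an epsin needed for ligand endocytosis, with 2350.1 in larval brain and 2486 ± 551 (SD, n = 4) in embryo culture, and O-fut1, which adds fucose to Notch, with 2000.2 in larval brain and 745 ± 196 in embryo culture.

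In the nuclear list 0 of 4 passed, although larval brain lay above all embryo culture arrays for each (25.6% of all probe sets). The median log2 difference of this list was 1.32. The largest was that of the co-repressor gene CtBP, 3.22 ± 0.80 (limma adjusted p = 0.0708), which was above background on 2 embryo culture arrays. The brightest member, the co-activator gene mam, had the smallest, 0.52 ± 0.46, with 14673 in larval brain and 10336 ± 1893 (SD, n = 4) in embryo culture. A second mam probe set was dim, at 37.8 in larval brain, and had the opposite sign. Among inhibitors and regulators of Notch 0 of 6 passed. The gene numb, whose protein blocks Notch in one daughter of an asymmetric division, had 585 in larval brain and 2092 ± 1880 in embryo culture, where array a alone held 4881. Su(dx), a ubiquitin ligase gene, had 801 in larval brain and 1467 ± 1119 in embryo culture. These are the brightest of that list, in which 3 of 6 differences were positive, with a median of 0.45. Larval brain lay above all 4 embryo culture arrays for insv, dx and bib (25.6% of all probe sets), with log2 differences of 2.24, 1.71 and 1.27.

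The proneural genes, which E(spl) repressors act on, and their partners did not pass either (0 of 12). Of these, ac and l(1)sc were at or under background on all 5 arrays. The brightest was emc, an HLH gene without a basic domain that binds and inactivates proneural proteins, with 12338 in larval brain, against 2035, 2535, 8017 and 5947 in embryo culture a to d (1.63 ± 0.70, limma adjusted p = 0.299). Next was phyl, which acts in sensory organ precursors, with 4565 in larval brain and 3426 ± 686 (SD, n = 4) in embryo culture.

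Among other repressors of the Hes and Hey type, relatives of the E(spl) proteins, hry (hairy) fell. The gene hry had 366 in larval brain, against 5524, 3971.5, 10366 and 6869.7 in embryo culture a to d. Larval brain thus lay below every embryo culture array, as it did for 28.6% of all probe sets. The log2 difference was -3.94 ± 0.51 (limma adjusted p = 0.004), between -4.97 and -3.52 over 15 alternatives and past the threshold in each. The other 5 of the 6 measured genes of this list did not pass, 3 of the 6 were positive, and the median difference was -0.06. Like E(spl)mbeta-HLH, hry was highest on array c within embryo culture.

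**Figure D4:**
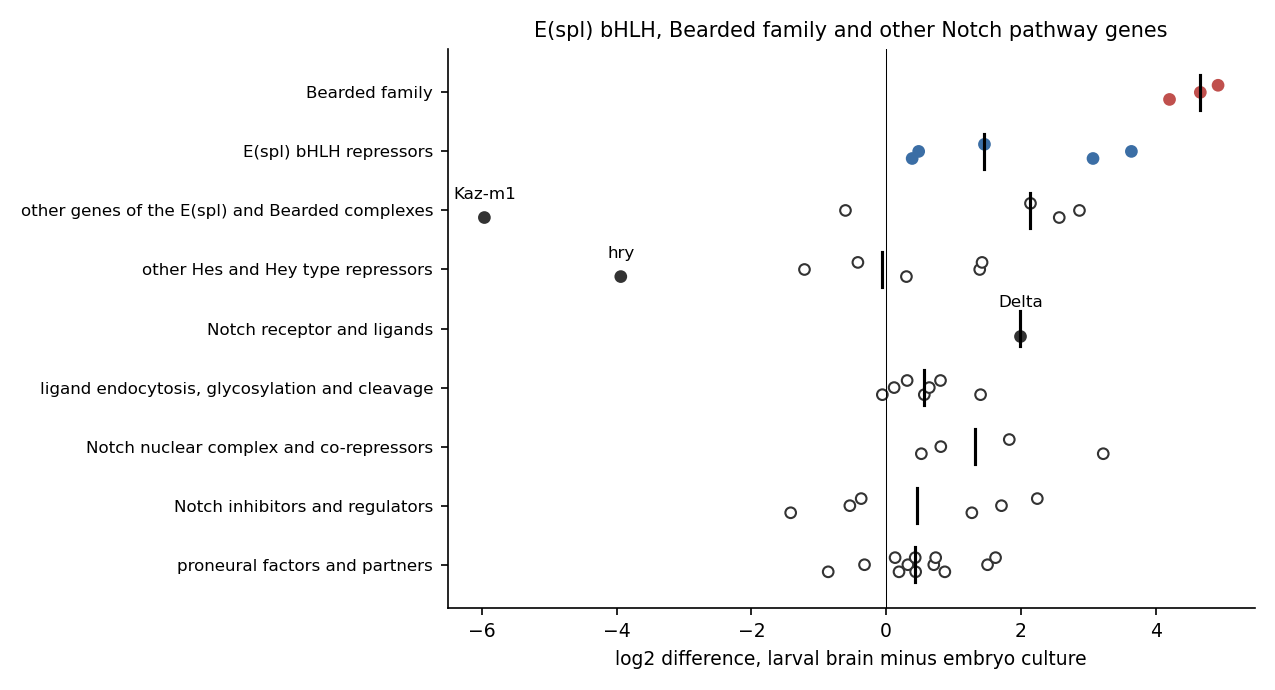
Log2 difference, larval brain minus embryo culture, for the Bearded family (red), the E(spl) bHLH repressors (blue) and 41 other genes of 7 Notch pathway lists (black circles, filled where called at an adjusted p under 0.05), with the median of each list as a vertical bar. Of the 41 other genes, Delta (1.99) is the only one called on the positive side, and Kaz-m1 (-5.96) and hry (-3.94) are called on the negative side.

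Marker lists of other cell types moved between the groups as well. The summed intensity of 10 neuroblast and ganglion mother cell markers was 15184 in larval brain and 2957 to 5695.5 in embryo culture. For these, 8 of 10 differences were positive and 1 rose (pros, 3835 in larval brain and 256.5 ± 138 in embryo culture, limma adjusted p = 0.0293), and none of the 10 was under background on all arrays. Larval brain lay above all 4 embryo culture arrays for 6 of these 10 markers, against 25.6% of all probe sets. The genes brat (6722 in larval brain) and pros made up most of the sum. The neuroblast genes dpn and ase lay within the embryo culture range. Their larval brain values were 253 (embryo culture 125.5 to 325) and 111 (19.6 to 178). The 7 measured proliferation markers summed to 7709 in larval brain and 2187 to 3996 in embryo culture, with all 7 differences positive and 0 called. The 8 pan-neuronal markers summed to 9945 in larval brain and 1136 to 2742 in embryo culture, with 7 positive and 1 called, and para and onecut were under background on every array. The called one was nerfin-1, a zinc finger gene of young neurons, with 3658 in larval brain and 374 ± 66.1 (SD, n = 4) in embryo culture (limma adjusted p = 0.00569), while its dimmer probe set was not called. The 8 optic lobe and eye disc markers summed to 4199 in larval brain and 1952 to 2662.5 in embryo culture, with 6 positive and 2 called, eya and tll, regulators of eye and optic lobe development.

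Markers of other tissues did not follow the E(spl) and Bearded genes. The 9 glial markers summed to 4049.7 in larval brain and 3712 to 6443 in embryo culture, so the groups overlapped. The 5 muscle markers summed to 612 in larval brain and 712 to 4963.5 in embryo culture, the 8 hemocyte markers to 939.9 in larval brain and 1138 to 4273 in embryo culture, and the 6 epidermal and tracheal markers, of which btl and sha were under background everywhere, to 2835 in larval brain and 5794 to 9512 in embryo culture. In each of these lists 0 genes were called. The higher lists moved with the Bearded family, E(spl)mdelta-HLH and E(spl)m7-HLH, and their part in those values was not tested.

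Genes with a profile over the 5 arrays like that of the Bearded family were then looked for. Likeness was measured as the Euclidean distance between log2 profiles centred on the embryo culture mean, over 10844 genes. The family's own genes lay at distances of 0.51 to 0.72 from their mean profile. These genes enter that mean and were chosen on the contrast it holds, so their closeness supports nothing. The nearest other genes were Jhbp2 (0.58), the translation elongation factor gene eEF1alpha2 (1.07), the serpin gene Spn43Aa (1.09), MTA1-like (1.20) and Ama (1.25), a gene for an immunoglobulin-domain protein. Jhbp2 had 1419 in larval brain, against 30.7, 16.9, 57.8 and 40.6 in embryo culture a to d. Jhbp2 and Spn43Aa were above background on 0 embryo culture arrays, and eEF1alpha2, MTA1-like and Ama on 1 each. Their likeness within embryo culture thus rests mostly on signals at or under background.

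The mean profile of the bHLH repressors fitted none of its own genes as closely. These lay at distances of 0.91 (E(spl)m3-HLH) to 1.93 (E(spl)mdelta-HLH), and 5 other genes lay nearer: CG8289 (0.15), FBXO11 (0.18), mldr (0.19), rept (0.23), which encodes the chromatin factor Reptin, and Nup62 (0.26), a nuclear pore gene. The bHLH mean thus averages over genes with unlike profiles.

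Under all 15 alternatives the median of the 3 chosen Bearded family genes stayed above the bHLH median. The gap was 2.40 to 3.89 on the log2 scale, against 3.20 as reported. Bearded family genes outside the list do not enter this median. The bHLH median was 0.35 with the 3′ to middle index as a covariate and 0.55 with the 3′ to 5′ index, while the Bearded family median was 4.24 and 4.29 in these fits. A direction that the choice of genes fixes is no sign of stability, and the comparison has no test.

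**Figure D5:**
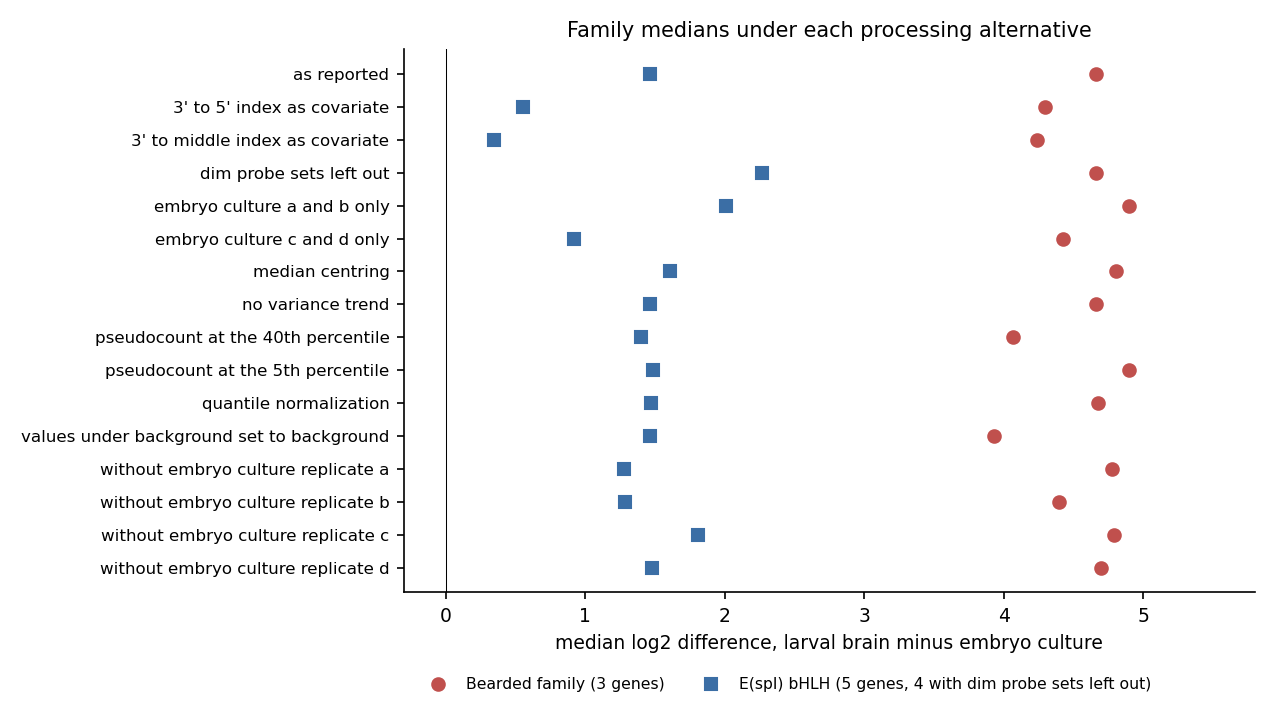
Median log2 difference, larval brain minus embryo culture, of the 3 Bearded family genes (red circles) and the E(spl) bHLH repressors (blue squares, 5 genes, or 4 where dim probe sets are left out) as reported and under 15 alternatives. The Bearded family median lies between 3.93 and 4.90, and the bHLH median between 0.35 and 2.27.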

How the data were processed

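Signal intensity was measured for 14010 probe sets, 44 of them controls, on 1 larval brain and 4 embryo culture arrays. The deposited intensity values are linear, 1 per probe set and array, and their 2% trimmed mean lay at 500.06 to 500.08 on each array, so the authors had scaled the deposited arrays to a common mean. The software, any background correction and the build: not given in the sources used here. The members and all gene lists were chosen with earlier results of these data known. For the comparison, 47.4 (percentile 20 over the table) was added to every intensity before taking log2, and limma 3.58.1 (R 4.3.3) was fitted (lmFit, eBayes with a variance trend, two-sided, Benjamini-Hochberg over 13966 probe sets, threshold 0.05). The fit had 3 residual degrees of freedom (9.11 after moderation). A run on simulated data required only that planted differences came out with the right sign. It drew the larval brain array with the spread of the embryo culture arrays, so it could not test that assumption. Of the probe sets, 12443 had 1 gene symbol, 327 several and 1196 none. Where probe sets shared a gene, the brightest stood for it, and 4 genes of the lists (E(spl)m1, h, Her and Dl) were matched under their current symbols. Named beside the members are pathway genes that were called, otherwise the 2 brightest of their list, and the 5 nearest profiles. A few other genes of the lists are named as well. Gene order came from the RefSeq table of Drosophila Release 6, whose coordinates are not given. Promoter and protein motifs were not examined. Alternatives changed the pseudocount, scaling, variance trend, dim probe sets, arrays and 3′ bias covariates. The slope of a 3′ bias covariate came from the embryo culture arrays alone and was extrapolated to larval brain. Python 3.11.15, pandas 2.3.3, NumPy 2.4.6 and matplotlib 3.10.9 made tables and plots.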

Additional observations from a re-analysis of the deposited data

Results flagged for a closer look

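In groups of 4 arrays, a value far from the other 3 was looked for in embryo culture (a gap to the nearest value, relative to the range, past the 95% limit of Dixon for 4 values), which chance gives in about 1 of 20 groups. Of 42 genes examined, 5 had one, each a high value, and whether they stand apart on the log2 scale was not tested. Among the 8 E(spl) and Bearded genes it was E(spl)malpha-BFM, with 302.2 on array c and 101.5 or less on the other 3. E(spl)m6-BFM had 96.3 on array c, which is under background. The gene numb had 4880.9 on array a, CycB, a mitotic cyclin gene, 1270.1 on array d, and the epidermal marker pot 720.9 on array c.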

How the results depend on the processing

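The Bearded family median (4.66) was 4.06 with the pseudocount at the 40th percentile, 4.24 and 4.29 with the 3′ to middle and 3′ to 5′ index as a covariate and 3.93 with values under background set to background, an alternative chosen after seeing the data. The bHLH median (1.46) was 1.61 with median centring, 2.27 with dim probe sets left out, 2.01 against embryo culture a and b only, 0.92 against c and d only, and 0.35 and 0.55 with the 3′ to middle and 3′ to 5′ index. Leaving out 1 embryo culture array gave 4.39 to 4.79 and 1.27 to 1.81. The count of the 8 genes called (5) was 5 without any 1 array, 6 against a and b only, where E(spl)m3-HLH was added, 3 under the middle index and 0 under the 5′ index, where the median SE over all probe sets was 0.71 and 0.86, against 0.58. At an unadjusted p under 0.05, 2239 of all probe sets passed, and 455 after adjustment. That count was 303 without the variance trend, 1732 against a and b only, 796 against c and d only, 264 with the 3′ to 5′ index, 1239 with values under background set to background, and 292 (without b) to 403 (without d) with 1 array left out. The count of other pathway genes called (3) was 14 against a and b only, 6 against c and d only, 10 with values set to background, and 2 to 3 with 1 array left out. The difference of E(spl)m5-HLH turned to -0.71 with values set to background, a step that raises its 4 embryo culture values. The cause of the other changes was not tested. No other difference of the 8 genes changed sign over 15 alternatives. Each gene had 1 probe set, so the choice of probe set gave no alternative, and E(spl)m5-HLH has no value with dim probe sets left out. Fits against 2 embryo culture arrays have 1 residual degree of freedom. No paired analysis was possible because larval brain has 1 array, which the labels tie to no embryo culture array. Background limits what is measured for E(spl)m4-BFM, E(spl)mdelta-HLH and E(spl)m5-HLH in embryo culture.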
